A study of Arabidopsis thaliana with 19 samples.

Results

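Phytochromes are the red and far-red light receptors of plants, and phytochrome interacting factors (PIFs) are basic helix-loop-helix transcription factors that the light-activated receptors bind and target for breakdown. In imbibed seeds these proteins link light to germination: active phytochrome removes PIF1, a repressor of germination in the dark, and gibberellin synthesis can then proceed. The 10 genes described here were the members of both families chosen by their AGI codes, the gene identifiers of the Arabidopsis genome: PHYA (AT1G09570), PHYB (AT2G18790), PHYC (AT5G35840), PHYD (AT4G16250), PHYE (AT4G18130), PIF1 (AT2G20180, also PIL5), PIF3 (AT1G09530), PIF4 (AT2G43010), PIF5 (AT3G59060, also PIL6) and PIF6 (AT3G62090, also PIL2). All 10 had a row among the 21313 genes of the table, and none was removed by a filter.

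RNA of whole dormant seeds, imbibed in water for 24 h, was hybridized to 19 ATH1 GeneChips, oligonucleotide arrays that read each gene with a set of short probes. The study's methods give continuous light for the imbibition, so these seeds were not kept in the dark. The genotypes were Landsberg erecta (Ler, n = 5) and near isogenic lines (NILs) that carry a DELAY OF GERMINATION (DOG) region of another accession in a Ler background. These were NILDOG1 (n = 5), NILDOG2 (n = 3) and NILDOG3 (n = 3), with DNA of Cvi, and NILDOG6 (n = 3), with DNA of Kas-2. The study describes NILDOG2 as less dormant and the other NILs as more dormant than Ler, and a replicate as seeds bulked from several plants. Each NIL is a single line, so that the DOG locus and other genes of its introgression cannot be told apart. Seeds were sampled whole, so a lower transcript level in fewer cells and less RNA per cell cannot be told apart either.

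Values are the deposited RMA values on the log2 scale, where a difference of 1 is a doubling, and they were compared between genotypes for a gene but not between genes. A gene was called where limma, fitted to all 19 arrays and 21313 genes, gave a Benjamini-Hochberg adjusted p under 0.05. Arrays of the same genotype correlated with r from 0.978 to 0.993. The array labelled NILDOG6 replicate 1 stood apart from the other NILDOG6 arrays: its r with them was 0.980 and 0.978, against 0.988 between those 2 arrays and a median of 0.988 with Ler. In limma, 21 genes separated NILDOG6 replicates 2 and 3 from Ler at an adjusted p under 0.0001. At 20 of them the array labelled replicate 1 lay nearer to the Ler mean. These genes were chosen with that array left out, which by itself favours this outcome. Results of NILDOG6 are given with and without that array. The 11 seed storage and late maturation markers were high everywhere, with array means from 12.78 to 13.22. The means of 3 endosperm markers of germinating seed ran from 9.02 to 10.77 in Ler, 8.78 to 10.18 in NILDOG1, 10.01 to 10.68 in NILDOG2, 8.73 to 8.91 in NILDOG3 and 9.11 to 9.80 in NILDOG6. Of 5 green leaf markers the 2 with a row averaged 5.26 to 6.22 over the arrays.

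PIF3 and PIF6 were the members that differed between a NIL and Ler in the fit to all arrays, and both were higher in NILDOG3. PIF1 was lower and PIF6 higher in NILDOG6 than in Ler where the array labelled NILDOG6 replicate 1 was left out. No phytochrome gene was called in any comparison of a NIL with Ler over all arrays. The calls of NILDOG3 lay near the threshold and did not survive the loss of some single arrays, which are named with each gene below.

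**Figure D1:**
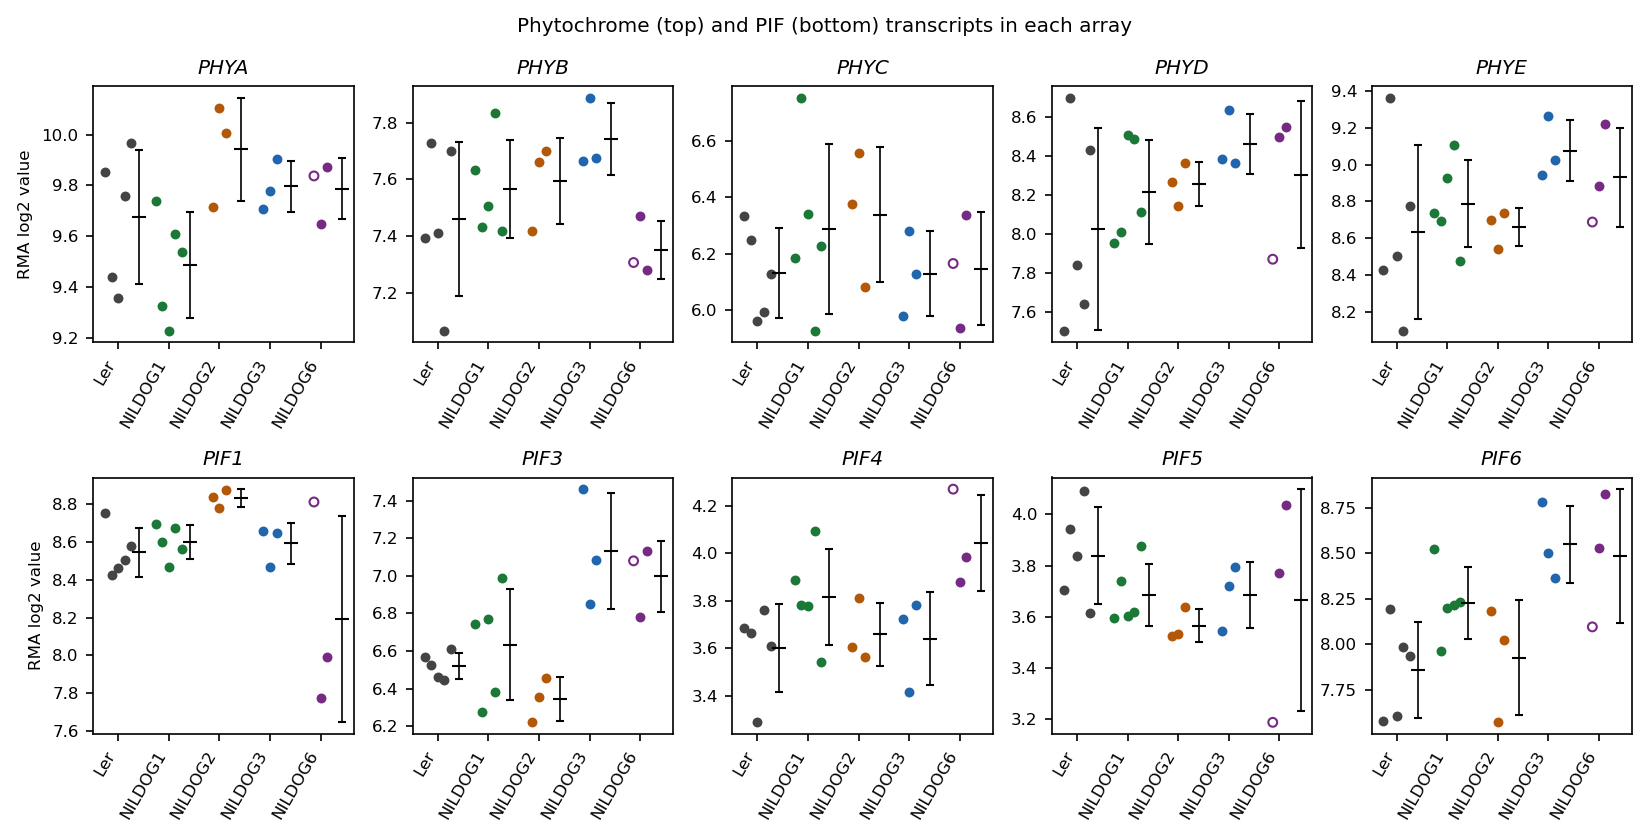
RMA log2 values of the 5 phytochrome genes (top row) and 5 PIF genes (bottom row), with 1 point per array, by genotype; black bars are the genotype mean ± SD, the open circle is the array labelled NILDOG6 replicate 1, and each vertical axis has its own range. The 3 NILDOG3 arrays lie above all 5 Ler arrays for PIF3 and PIF6, and 2 of the NILDOG6 arrays lie below every other array for PIF1. In NILDOG3 4.71% of all genes lie above all Ler arrays, and 12.2% lie below them in NILDOG6 without replicate 1.

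PIF3, a factor best known from seedlings as a repressor of light responses in the dark, had the widest range of genotype means among the members, 0.79 from NILDOG2 to NILDOG3. Its log2 values in Ler replicates 1 to 5 were 6.57, 6.52, 6.46, 6.44 and 6.61, the narrowest spread of any member in Ler (SD 0.070). In NILDOG3 they were 7.46, 6.85 and 7.08. All 3 NILDOG3 arrays were thus above all 5 Ler arrays, a separation in this direction that 4.71% of all genes showed. The difference was 0.61 ± 0.16 (SE; 1.53-fold) with a 95% interval from 0.28 to 0.94 and a limma adjusted p = 0.0403.

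In NILDOG6 PIF3 measured 7.08, 6.78 and 7.13, again above every Ler array, with the array labelled replicate 1 among them. PIF3 and PIF4 lay above all Ler arrays in NILDOG6, as did 4.42% of all genes. The difference of PIF3 from Ler was 0.48 ± 0.16 (SE), but the limma adjusted p was 0.103, and it was 0.147 at 0.44 without replicate 1. The values in NILDOG1, 6.74, 6.28, 6.77, 6.38 and 6.99, spread to both sides of those of Ler, and the difference was 0.11 ± 0.14 (SE). NILDOG2 had the lowest mean, with 6.22, 6.35 and 6.46, and differed from Ler by -0.18 ± 0.16 (SE; limma adjusted p = 0.912).

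Against NILDOG2, the less dormant line, PIF3 was higher in NILDOG3 by 0.79 ± 0.18 (SE; 1.73-fold, limma adjusted p = 0.0148). NILDOG6 was above NILDOG2 by 0.65 ± 0.18 (SE) with a limma adjusted p of 0.0609. These comparisons use the same NILDOG3 and NILDOG6 arrays as those with Ler and are not separate evidence. In limma's F test over the 5 genotypes PIF3 was the 1 member called (adjusted p = 0.0220), where 6.39% of all genes were called. The order of the genotype means was NILDOG2, Ler, NILDOG1, NILDOG6 and NILDOG3, and among neighbours in it NILDOG2 overlapped Ler, Ler overlapped NILDOG1, NILDOG1 overlapped NILDOG6 and NILDOG6 overlapped NILDOG3.

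The PIF3 call of NILDOG3 against Ler was lost in 7 of the 19 fits that left out 1 array. The limma adjusted p was 0.0802 without Ler replicate 1, 0.0810 without Ler replicate 3, 0.0878 without Ler replicate 4 and 0.0511 without NILDOG2 replicate 2. It was 0.209 without NILDOG3 replicate 1, 0.0571 without replicate 2 and 0.102 without replicate 3. The difference kept its sign throughout, from 0.44 without NILDOG3 replicate 1 to 0.75 without NILDOG3 replicate 2. The call against NILDOG2 was lost in 3 of the 19 fits, with an adjusted p of 0.0679 without NILDOG2 replicate 1, 0.0707 without NILDOG2 replicate 2 and 0.0882 without NILDOG3 replicate 1.

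PIF6, whose splice forms have been linked to the depth of primary dormancy, is a gene that the study itself selected as higher in dormant than in after-ripened seeds on arrays that include these, so its presence among dormant transcripts is not an independent result. The comparison made here, between genotypes that are all dormant, is a different one. In the study, a PIF6 knock-out line in a Columbia background was more dormant than wild type. How the level of PIF6 relates to dormancy was not tested here. PIF6 measured 7.58, 8.19, 7.61, 7.98 and 7.94 in Ler, and 8.78, 8.50 and 8.37 in NILDOG3. Every NILDOG3 array was above every Ler array. The difference was 0.69 ± 0.18 (SE; 1.61-fold), with a 95% interval from 0.31 to 1.07 and a limma adjusted p = 0.0470.

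In NILDOG6 the PIF6 values were 8.10, 8.53 and 8.83, and the first, from the array labelled replicate 1, fell within the range of Ler. The difference was 0.63 ± 0.18 (SE) with a limma adjusted p = 0.0725 over all arrays, and 0.82 ± 0.19 (SE; 1.77-fold) with an adjusted p = 0.0141 without replicate 1. It was also called without Ler replicate 2, at 0.71 (adjusted p = 0.0363). Over the 19 fits that left out 1 array the adjusted p ran from 0.0141 to 0.327. NILDOG1 had 8.52, 7.97, 8.20, 8.22 and 8.23, of which 4 were above the highest Ler array, but the difference of 0.37 ± 0.16 (SE) had a limma adjusted p of 0.388.

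NILDOG2, with 8.18, 7.57 and 8.03, was close to Ler for PIF6 (0.07 ± 0.18, SE), with a 95% interval that still allowed a difference from -0.32 to 0.45. The genotypes therefore ran Ler, NILDOG2, NILDOG1, NILDOG6 and NILDOG3 by mean, and each neighbour in this order overlapped the next. Set against NILDOG2, PIF6 was 0.62 ± 0.21 (SE) higher in NILDOG3, with a limma adjusted p of 0.115. NILDOG6 without replicate 1 exceeded NILDOG2 by 0.75 ± 0.21 (SE; adjusted p = 0.0384), and by 0.56 over all arrays (adjusted p = 0.172). In limma's F test PIF6 had an adjusted p of 0.0550 over all arrays and 0.0152 without NILDOG6 replicate 1.

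The PIF6 call in NILDOG3 was lost in 13 of the 19 fits with 1 array left out. Adjusted p-values were 0.127 without Ler replicate 1, 0.106 without Ler replicate 3, 0.0730 without Ler replicate 4 and 0.0564 without Ler replicate 5. They were 0.195, 0.160 and 0.0781 without NILDOG3 replicates 1, 2 and 3. Without an array of another genotype (NILDOG1 replicates 3, 4 or 5, NILDOG2 replicates 1 or 3, or NILDOG6 replicate 2) they were 0.0508 to 0.0586 at an unchanged difference. The difference ranged from 0.57 to 0.78. It was also not called after quantile normalization (adjusted p = 0.0535), with replicates 1 to 3 only (adjusted p = 0.0921) or in a fit of NILDOG3 and Ler alone (adjusted p = 0.0548).

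For the whole set, 2 of 10 members were called in NILDOG3 against Ler, where 2.88% of all genes were called, and both were higher, a direction in which 0.68% of all genes were called. No member of the set passed an adjusted p of 0.0001 in limma there, a threshold met by 15 genes (0.0704%), and 3 members had an unadjusted p under 0.05, as 17.1% of all genes did. The median difference of the 10 members from Ler was 0.20 in NILDOG3, beside 0.01 over all genes tested. EXPA2, an expansin of the endosperm that loosens cell walls at germination, fell in the same NILDOG3 arrays, at 5.16, 5.66 and 5.10 against 9.24, 6.56, 7.73, 9.85 and 7.58 in Ler (-2.88 ± 0.70, SE; limma adjusted p = 0.0297). It was 1 of 3 endosperm markers called, and its part in the PIF3 and PIF6 results was not tested. The EXPA2 call was itself lost without Ler replicate 1 or 4 or any NILDOG3 array, at adjusted p-values of up to 0.108, and with a term for replicates 4 and 5 (-2.38, adjusted p = 0.0537).

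**Figure D2:**
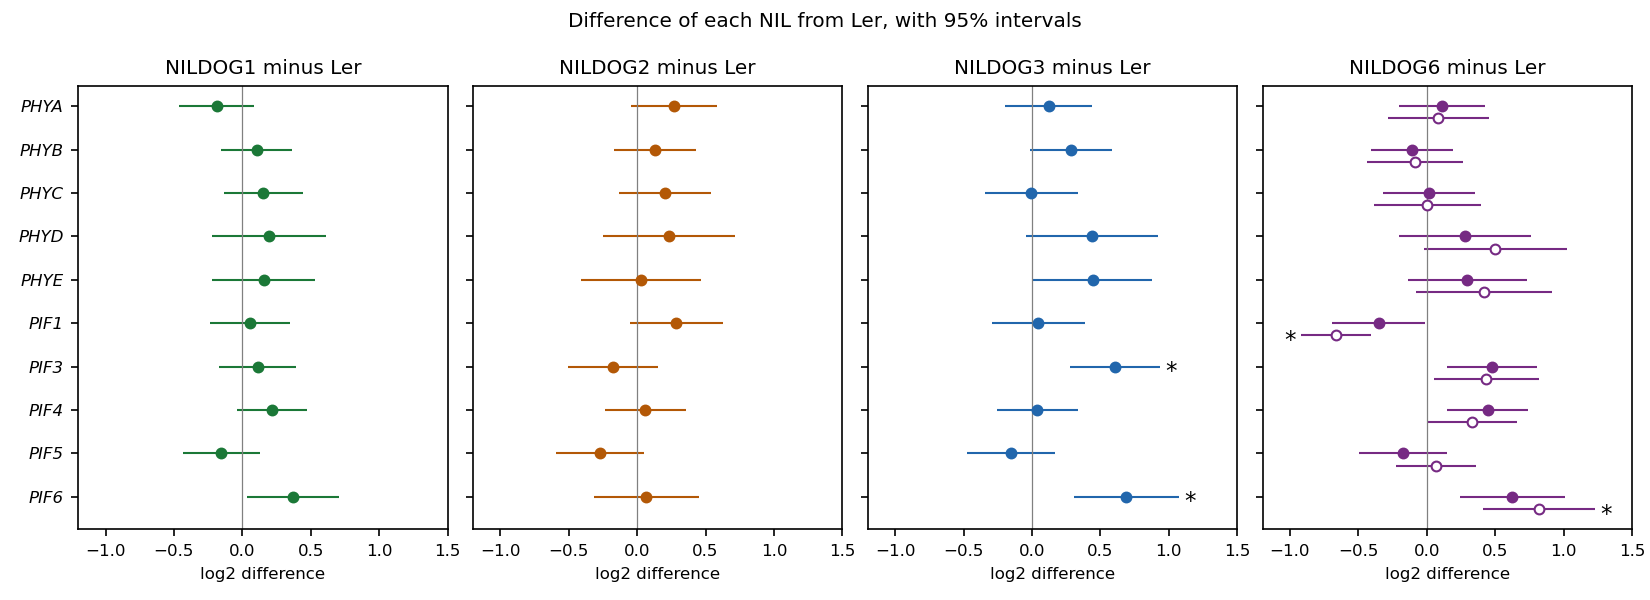
Log2 difference of each NIL from Ler for the 10 members, with 95% intervals from limma; filled points use all arrays, open points in the NILDOG6 panel leave out the array labelled NILDOG6 replicate 1, and an asterisk marks an adjusted p under 0.05 over all 21313 genes. The marked differences are PIF3 (0.61) and PIF6 (0.69) in NILDOG3, and PIF1 (-0.66) and PIF6 (0.82) in NILDOG6 without replicate 1.

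PIF1, the main PIF repressor of seed germination in the dark, had a narrow range in 4 genotypes and a wide one in NILDOG6. It measured 8.75, 8.42, 8.46, 8.51 and 8.58 in Ler, 8.70, 8.60, 8.47, 8.68 and 8.56 in NILDOG1, and 8.66, 8.47 and 8.65 in NILDOG3. The NILDOG6 values were 8.81, 7.77 and 7.99. Replicates 2 and 3 were lower than all 16 arrays of the other genotypes, whereas the array labelled replicate 1 was above every Ler array. Accordingly the SD of PIF1 in NILDOG6 was 0.547, against 0.048 to 0.129 in the other genotypes. With the array labelled replicate 1 left out (n = 2), 12.2% of all genes lay below every Ler array in NILDOG6.

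The call of PIF1 in NILDOG6 against Ler was made only where that 1 array was left out, among the alternatives run. Over all arrays the difference from Ler was -0.35 ± 0.16 (SE) with a limma adjusted p = 0.247, and without the array labelled NILDOG6 replicate 1 it was -0.66 ± 0.12 (SE), or 1.58-fold lower, with a 95% interval from -0.92 to -0.41 and an adjusted p = 0.00294. Over the 19 fits that each left out 1 array, adjusted p-values ran from 0.00294 to 0.764. Against NILDOG2 the difference was -0.64 ± 0.18 (SE; limma adjusted p = 0.0767), and without the array -0.95 ± 0.13 (SE; 1.93-fold lower, adjusted p = 0.000332). With all arrays kept, PIF1 was also called against NILDOG2 under limma's array weights, at -0.75 (adjusted p = 0.0132). With that array left out NILDOG6 has n = 2.

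At the other end, the 3 NILDOG2 values of PIF1, 8.84, 8.78 and 8.88, were all above the highest Ler value. The difference was small (0.29 ± 0.16, SE), and the limma adjusted p was 0.807. In NILDOG2 1 member of 10 lay above all Ler arrays in this way, and 2.54% of all genes did.

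The array labelled NILDOG6 replicate 1 did not resemble Ler at every member. It was within the range of Ler for the 5 phytochromes and PIF6. It lay above every Ler array for PIF1, PIF3 and PIF4, by 0.27, 0.56 and 0.67 over the Ler mean, and below every Ler array for PIF5, by -0.65 relative to the Ler mean. Its PIF5 value was the lowest of the 19 and its PIF4 value the highest.

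Altogether 0 of 10 members were called in NILDOG6 against Ler over all arrays in limma, where 2.36% of all genes were called, and 4 members had an unadjusted p under 0.05, as 18.8% of all genes did. These 4 were all PIFs: PIF1, PIF3, PIF4 and PIF6. Without the array labelled NILDOG6 replicate 1, 2 of 10 were called beside 8.39% of all genes. The median difference of the members was 0.20 over all arrays, beside 0.01 for all genes. In the comparison with NILDOG2, 0 members were called over all arrays (1.66% of all genes called, 4 members at an unadjusted p under 0.05) and 2 without that array, PIF1 and PIF6 (6.78% of all genes called). Where it was left out, limma's F test called PIF1, PIF3 and PIF6, beside 9.91% of all genes.

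PIF4 and PIF5, factors of elongation growth in shade and at warm temperature in seedlings, had low values in these seeds. Both were below the median of all genes in 19 of 19 arrays, and the values used here carry no detection call. PIF4 measured 3.68, 3.67, 3.29, 3.76 and 3.61 in Ler and 4.27, 3.88 and 3.98 in NILDOG6. The NILDOG6 arrays were above all Ler arrays, but the difference of 0.44 ± 0.14 (SE) had a limma adjusted p of 0.0933, and 0.201 without replicate 1. The other PIF4 values lay between 3.42 and 4.10.

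PIF5 measured 3.71, 3.94, 3.84, 4.09 and 3.61 in Ler, where its mean was the highest of the 5 genotypes. NILDOG2 had 3.53, 3.53 and 3.64, a difference of -0.27 ± 0.15 (SE; limma adjusted p = 0.803) with overlap. The widest spread was in NILDOG6, with 3.19, 3.77 and 4.04, in which the array labelled replicate 1 was again the one apart. Genotype means of PIF5 spanned 0.27, close to the pooled SD within genotypes of 0.21.

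PHYA, the light-labile phytochrome that can start germination at very low light, had its lowest values in NILDOG1 and its highest in NILDOG2. Its values were 9.85, 9.44, 9.36, 9.76 and 9.97 in Ler, 9.74, 9.33, 9.23, 9.61 and 9.54 in NILDOG1, and 9.71, 10.11 and 10.01 in NILDOG2. These 2 NILs overlapped only between 9.71 and 9.74. The difference between them was -0.45 ± 0.15 (SE), with a limma adjusted p of 0.131 and an unadjusted p of 0.00692 in limma. With a term for replicates 4 and 5, which NILDOG2 lacks, it was -0.55 and called (adjusted p = 0.0309). Neither NIL was called against Ler, at -0.19 ± 0.13 and 0.27 ± 0.15 (SE). NILDOG3, at 9.71 to 9.90, and NILDOG6, at 9.65 to 9.87, lay within the range of Ler.

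PHYB, the main light-stable receptor of red light, gave 7.39, 7.73, 7.41, 7.07 and 7.70 in Ler, 7.63, 7.43, 7.50, 7.83 and 7.42 in NILDOG1, and 7.42, 7.66 and 7.70 in NILDOG2. NILDOG3, at 7.67, 7.89 and 7.67, was highest by mean and NILDOG6, at 7.31, 7.47 and 7.28, lowest. Both of these groups overlapped Ler. The differences from Ler were 0.28 ± 0.14 and -0.11 ± 0.14 (SE), with limma adjusted p-values of 0.325 and 0.743.

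PHYC, a light-stable receptor, had the smallest range of genotype means of the members, from 6.13 to 6.34. It measured 6.33, 6.25, 5.96, 5.99 and 6.13 in Ler and lay between 5.93 and 6.75 in the NILs, with both of these extremes in NILDOG1. Its differences from Ler were between -0.00 in NILDOG3 and 0.21 in NILDOG2. The 95% interval of the latter, -0.13 to 0.54, shows that a difference of that size could have gone undetected.

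PHYD, a close relative of PHYB, and PHYE, known for a part in germination under far-red light, varied more within genotypes than any other member. PHYD measured 7.50, 8.70, 7.84, 7.64 and 8.43 in Ler and PHYE 8.43, 9.36, 8.50, 8.10 and 8.77. Ler replicate 2 was highest of all 19 arrays for both, by 0.85 and 0.91 over the mean of the other Ler arrays. In NILDOG3 PHYD was 8.39, 8.64 and 8.36 and PHYE 8.94, 9.26 and 9.02. All 3 PHYE values and the highest PHYD value were above every Ler array but that one. The difference of PHYE in NILDOG3 from Ler was 0.44 ± 0.21 (SE; limma adjusted p = 0.283), and without Ler replicate 2 it was 0.63 (adjusted p = 0.0312), while adjusted p-values over the 19 left-out fits ran from 0.0312 to 0.647. For PHYD the difference was 0.44 ± 0.23 (SE), with an adjusted p of 0.348.

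The values of PHYD and PHYE ran together over the arrays. Their Pearson r over 19 arrays was 0.865, the highest of the 45 pairs of members, whose median was 0.00. It was also 0.865 after the genotype means were subtracted, and 0.848 over 18 arrays without Ler replicate 2. PHYD and PHYE are on chromosome 4, with separate rows. PHYB followed them less closely, with r of 0.625 to PHYD and 0.626 to PHYE.

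PIF3 and PIF6 correlated with r = 0.675 over the arrays and 0.256 once the genotype means were subtracted. PIF1 and PIF5 had the lowest r, -0.554, and -0.721 within genotypes. The array labelled NILDOG6 replicate 1 had the lowest PIF5 value, and its PIF1 value was exceeded in NILDOG2 replicates 1 and 3 alone. These values describe 19 arrays that share genotypes and normalization.

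**Figure D3:**
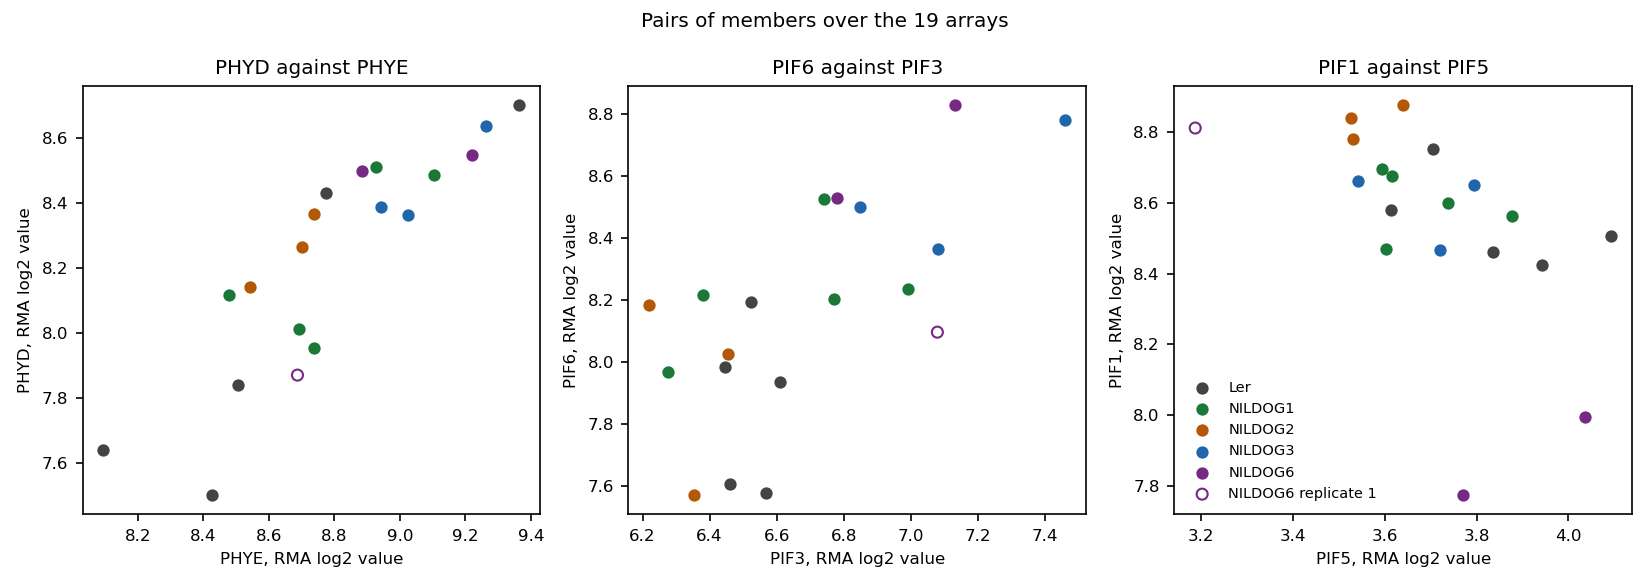
RMA log2 values of PHYD against PHYE, PIF6 against PIF3 and PIF1 against PIF5, with 1 point per array coloured by genotype; the open circle is the array labelled NILDOG6 replicate 1. PHYD and PHYE rise together over all genotypes (r = 0.865), the NILDOG3 arrays are in the upper right for PIF6 against PIF3, and NILDOG6 replicates 2 and 3 lie apart at low PIF1.

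Among all genes, those with the profile most like PIF3 over the 19 arrays were ARF21 (r = 0.843), FRS4 (0.807) and AT1G72390 (0.799). Within genotypes their r with PIF3 was 0.676, 0.735 and 0.546. All are on chromosome 1 like PIF3 itself, but their distance from it was not examined. FRS4 belongs to the FAR1-related sequence family, whose founder acts in PHYA signalling, and ARF21 to the auxin response factors. Ranked by likeness to PIF3, PIF6 was in place 59. Most like PIF6 were UGP2 (0.872), a UDP-glucose pyrophosphorylase, SSI2 (0.868), a stearoyl-ACP desaturase, and CAT3 (0.857), a catalase. Within genotypes these 3 kept r of 0.775, 0.784 and 0.772.

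In NILDOG1 and NILDOG2 against Ler, 0 of 10 members were called by limma. All genes were called at 1.17% in NILDOG1 and 0.305% in NILDOG2, and 1 member (PIF6 in NILDOG1) and 0 members had an unadjusted p under 0.05, as 10.9% and 6.78% of all genes did. The median difference of the members was 0.13 in NILDOG1 and 0.10 in NILDOG2, beside 0.02 and -0.00 over all genes. Between NILDOG1 and NILDOG2, 0 members were called (2.56% of all genes called, with PHYA at an unadjusted p under 0.05). In NILDOG3 against NILDOG2 PIF3 was the 1 member called, beside 3.2% of all genes.

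Replicates 4 and 5 exist for Ler and NILDOG1 alone, so these 10 arrays were also split by replicate set with genotype as a term. No member was called by limma between replicates 4 and 5 and replicates 1 to 3, where 2.15% of all genes were called. At an unadjusted p under 0.05 there were 0 members and 17.6% of all genes. The member differences ran from -0.24 for PHYC to 0.23.

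The position of the members relative to the introgressions was read from gene order. The NILDOG1 region was taken to lie on chromosome 5, those of NILDOG2 and NILDOG3 on chromosome 1, and that of NILDOG6 on chromosome 3. The study draws the introgressed regions, but its text does not name these chromosomes. PIF3 and PHYA are neighbours on chromosome 1, with 3 genes of the table between them. The 11 chromosome 1 genes called in NILDOG2 at an adjusted p under 0.0001 in limma ran from AT1G01800 to AT1G12790, with 7 of them above PIF3 and 4 below PHYA in gene order. Both genes thus lay between genes that differed most clearly in NILDOG2, and 7 of the 200 nearest neighbours of each were called (3.5%, against 0.305% of all genes), yet neither was called itself. Their differences from Ler, 0.27 for PHYA and -0.18 for PIF3, had 95% intervals from -0.05 to 0.58 and from -0.51 to 0.15.

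In NILDOG3, where PIF3 was called, the 14 chromosome 1 genes called at 0.0001 ran from AT1G21450 to AT1G32560, all below PHYA in order. The nearest was 976 genes away from PIF3. Of the 200 neighbours of PIF3, 6 were called in NILDOG3 (3.0%), beside 2.88% of all genes. PIF6 and PIF5 are on chromosome 3, and PHYC is on chromosome 5. Of the 200 neighbours of PIF6, 7 were called in NILDOG6 (3.5%), beside 2.36% of all genes. The count was 20 of 200 without the array labelled NILDOG6 replicate 1, beside 8.39% of all genes. No neighbour of PIF6 was called at 0.0001 in either fit. PIF5 had 1 and 10 called neighbours of 200 in these fits, and PHYC had 5 of 200 in NILDOG1. Whether these 3 genes lie inside an introgression was not tested. PHYE on chromosome 4 had 10 called neighbours of 200 in NILDOG1 (5.0% against 1.17%), 1 of them at 0.0001. The difference of PHYE itself there was 0.16 ± 0.18 (SE).

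The other genes of the light pathway were read from 8 lists of 77 genes, of which 70 had a row. They cover chromophore synthesis (5 of 5 with a row), nuclear transport and signalling partners of phytochromes (11 of 12), other PIF-related basic helix-loop-helix factors (6 of 10), COP1, SPA and HY5 signalling (8 of 9), kinases and ligase adaptors of PIF turnover (5 of 5), seed genes downstream of PIF1 (17 of 17), shade and PIF targets of seedlings (10 of 10) and other photoreceptors (8 of 9). Against Ler, 0 were higher and 2 lower in NILDOG1, none was called by limma in NILDOG2 (7 at an unadjusted p under 0.05), 0 were higher and 3 lower in NILDOG3, and 1 was higher and 3 lower in NILDOG6. Over all genes the shares called higher and lower were 0.366% and 0.807% in NILDOG1, 0.141% and 0.164% in NILDOG2, 0.68% and 2.2% in NILDOG3, and 0.952% and 1.4% in NILDOG6. No gene of chromophore synthesis, COP1 signalling or PIF turnover was among these. Without the array labelled NILDOG6 replicate 1, 2 were higher and 7 lower in NILDOG6, beside 3.05% and 5.34% of all genes. The medians of the 8 lists lay between -0.34 and 0.29 in NILDOG1, -0.13 and 0.13 in NILDOG2, -0.49 and 0.25 in NILDOG3, and -0.16 and 0.15 in NILDOG6, beside medians over all genes of -0.00 to 0.02. The other PIF-related factors, with PAR1 among them, had the lowest median in NILDOG1, NILDOG3 and NILDOG6.

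XTR7, a cell wall xyloglucan enzyme and a target of PIFs in shaded seedlings, fell most. Its values were 7.81, 6.55, 7.20, 7.83 and 7.24 in Ler and 4.85, 4.69 and 4.56 in NILDOG3, without overlap. In NILDOG3 6.32% of all genes lay below all Ler arrays. The difference of XTR7 was -2.63 ± 0.43 (SE; limma adjusted p = 0.00256), and it was called in all 19 fits with 1 array left out. NILDOG2, at 8.15, 8.67 and 7.93, was above every Ler array, as were 2.54% of all genes. NILDOG3 was lower than NILDOG2 by -3.55 ± 0.48 (SE; adjusted p = 0.000284). In NILDOG6 XTR7 had 7.21, 5.37 and 5.23, with the array labelled replicate 1 inside the range of Ler.

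PAR1, a small helix-loop-helix protein that binds PIFs and blocks their action, was lower in NILDOG1 (-1.27 ± 0.31, SE; limma adjusted p = 0.0490) and NILDOG3 (-1.59 ± 0.36, SE; adjusted p = 0.0195). It measured 5.26, 3.79, 5.19, 4.95 and 3.78 in Ler, 3.32, 3.78, 2.94, 3.38 and 3.19 in NILDOG1, and 3.01, 2.86 and 3.12 in NILDOG3. The Ler values fell into a higher and a lower group, and NILDOG1 replicate 2 reached the lower one. The NILDOG1 call was lost in 15 of 19 left-out fits (adjusted p up to 0.164), among them those without Ler replicates 1, 3 or 4, any array of NILDOG1, NILDOG2 or NILDOG3, or NILDOG6 replicate 3. That of NILDOG3 was lost in 5, without Ler replicate 1 or 4 or any NILDOG3 array (adjusted p up to 0.118). In NILDOG1 it was further lost with quantile normalization (adjusted p = 0.0527), with replicates 1 to 3 only (0.229) and in a fit of NILDOG1 and Ler alone (0.0716). The NILDOG1 and NILDOG3 values of PAR1 lay around the lower quartile of all genes, 3.105 to 3.267 over the arrays, and carry no detection call, so that the sizes of these differences are uncertain.

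GA3OX2, a gibberellin 3-oxidase of the last step to active gibberellin that the study also names, measured 5.05, 4.44, 4.28, 5.41 and 5.16 in Ler. It was 3.75, 3.71, 3.46, 4.58 and 4.14 in NILDOG1 and 3.70, 3.92 and 3.36 in NILDOG3. The decreases were -0.94 ± 0.22 (SE; limma adjusted p = 0.0355) and -1.21 ± 0.25 (SE; adjusted p = 0.0124). The NILDOG3 arrays lay below all of Ler, as for 6.32% of all genes, and the call was lost without NILDOG3 replicate 3 (adjusted p = 0.0767). In NILDOG1 it was lost without Ler replicates 1, 4 or 5 or NILDOG1 replicates 1, 2 or 3, at up to 0.124, and also with quantile normalization (0.0520), with replicates 1 to 3 only (0.0565) and in a fit of NILDOG1 and Ler alone (0.113). GA3OX2 was also higher in replicates 4 and 5 than in replicates 1 to 3 of Ler and NILDOG1, by 0.71 ± 0.16 (SE; adjusted p = 0.0386). Its NILDOG1 and NILDOG3 values lay below the array medians of all genes, 4.627 to 4.919, and carry no detection call, so that the sizes of these decreases are uncertain.

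In NILDOG6 the genes of the lists called over all arrays were FHY1, GAI, PHOT1 and PHOT2. FHY1, the carrier that brings PHYA into the nucleus, was 5.28, 5.19 and 4.68 there, below all Ler values of 6.57, 5.51, 6.88, 6.04 and 6.11 (-1.17 ± 0.30, SE; limma adjusted p = 0.0444). GAI, a DELLA repressor of gibberellin responses, was 9.12, 8.87 and 9.12, below the 5 Ler arrays at 9.34 to 10.06 (-0.69 ± 0.18, SE; adjusted p = 0.0452). In Ler and NILDOG1, GAI was also lower in replicates 4 and 5, which NILDOG6 lacks, by -0.51 ± 0.10 (SE; adjusted p = 0.0261). Over 9 alternatives other than leaving out 1 array, its difference from Ler ran from -0.94 to -0.58 (adjusted p from 0.000788 to 0.182). Over all arrays 3.67% of all genes lay below all Ler arrays in NILDOG6. For FHY1 and GAI, the array labelled replicate 1 lay with the other NILDOG6 arrays. Without it their differences from Ler were -1.29 ± 0.35 and -0.73 ± 0.21 (SE; limma adjusted p = 0.0276 and 0.0356).

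The phototropins, blue-light receptors, moved in opposite directions in NILDOG6. PHOT1 measured 7.08, 5.84 and 5.81 against 7.29, 7.92, 6.95, 7.47 and 7.47 in Ler (-1.18 ± 0.26, SE; limma adjusted p = 0.0287), with the array labelled replicate 1 within the range of Ler. Without that array the difference of PHOT1 was -1.59 ± 0.24 (SE; adjusted p = 0.000684). PHOT1 is on chromosome 3, the chromosome taken here as that of the NILDOG6 introgression, but its position relative to that region was not examined. PHOT2 measured 4.76, 4.75 and 4.58 against 3.88, 3.80, 3.67, 3.88 and 4.43 (0.77 ± 0.19, SE; adjusted p = 0.0408), without overlap. In NILDOG6 4.42% of all genes lay above all Ler arrays. Without the array labelled replicate 1 the PHOT2 difference was 0.74 ± 0.22 (SE; adjusted p = 0.0476). Its Ler values lay below the array medians of all genes, 4.627 to 4.919, and carry no detection call, so that the size of this difference is uncertain.

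Those 4 calls were lost in 3 (PHOT1) to 14 (FHY1) of the 19 fits that left out 1 array. For PHOT1 the arrays were Ler replicate 1 and NILDOG6 replicates 2 and 3 (limma adjusted p up to 0.159), and for PHOT2 Ler replicates 1, 3 and 4, NILDOG2 replicates 1 and 3 and NILDOG6 replicates 2 and 3 (up to 0.157). For GAI, lost in 11, they were Ler replicates 1 to 3, NILDOG1 replicate 3, any NILDOG2 array, NILDOG3 replicates 2 and 3 and NILDOG6 replicates 2 and 3 (up to 0.195). For FHY1 they were Ler replicates 1, 3, 4 and 5, NILDOG1 replicates 1 and 4, any array of NILDOG2 or NILDOG3, and NILDOG6 replicates 2 and 3 (up to 0.203). In a fit of NILDOG6 and Ler alone none of the 4 was called, with limma adjusted p-values of 0.159 for FHY1, 0.182 for GAI, 0.166 for PHOT1 and 0.139 for PHOT2. FHY1 was also lost with quantile normalization (0.0565) and with replicates 1 to 3 only (0.0597), PHOT1 with replicates 1 to 3 only (0.0557), and GAI and PHOT2 with array weights (0.0524 and 0.0596).

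**Figure D4:**
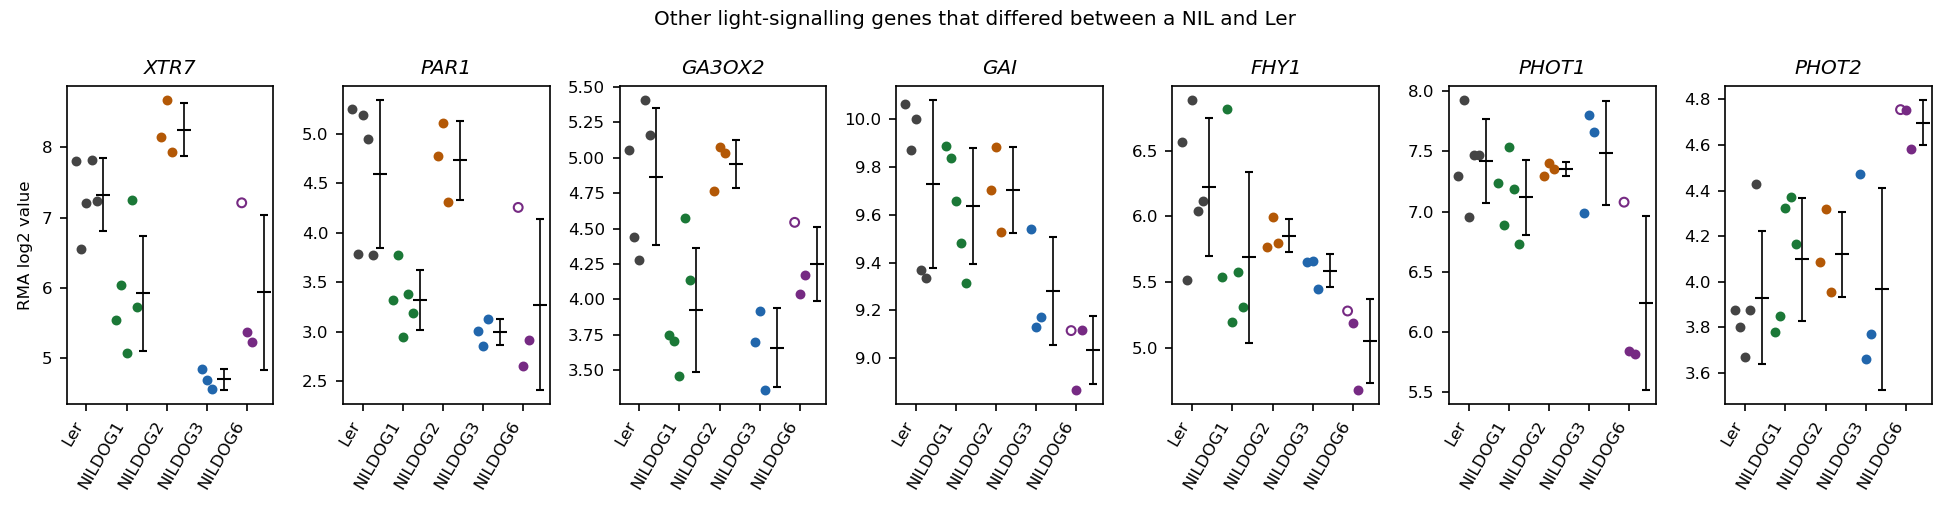
RMA log2 values of the 7 other light-pathway genes called between a NIL and Ler, with 1 point per array; black bars are the genotype mean ± SD, the open circle is the array labelled NILDOG6 replicate 1, and each vertical axis has its own range. XTR7 is at 4.56 to 4.85 in NILDOG3, PAR1 and GA3OX2 are low in NILDOG1 and NILDOG3, and the other 4 genes were called in NILDOG6.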

How the data were processed

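The authors extracted RNA of dormant seeds, hybridized biotin-labelled cRNA to ATH1 GeneChips and normalized the arrays with RMA. The deposited values, on the log2 scale, have 1 row per AGI code. The probe annotation and the genome build are not given in the sources used here, nor is a detection value, so the number of arrays limits the precision and low values cannot be told from background. One label names dry seeds for the extraction, whereas the treatment and the study's methods give 24 h of imbibition, which was used. The methods name fewer replicates than the 5 of Ler and NILDOG1, and all arrays were kept.

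Genotypes were taken from the labels. A model of the 5 genotype means was fitted to 21313 genes with limma 3.58.1 in R 4.3.3 (lmFit, eBayes with a constant prior, no filter), and p-values were adjusted by Benjamini and Hochberg over all genes. The labels do not say that arrays came from separate harvests beyond a bulk of plants per replicate, so p-values measure the spread between these arrays. Plants were grown in randomized blocks, but the labels do not tie replicate numbers to blocks. Deviations of equal-numbered samples from their genotype means correlated in some pairs and not in others (r from -0.295 to 0.373), so the replicate block was kept as an alternative. On simulated data with 200 genes changed by 2 (log2), 98% to 100% were recovered, with 6 to 16 false calls over 21313 genes. Member differences from Ler were smaller, at most 0.69 over all arrays, and recovery of changes of that size was not measured. Python 3.11.15, numpy 2.4.6, pandas 2.3.3 and matplotlib 3.10.9 were used for descriptions and plots.

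The members and gene lists were chosen with earlier results of these data known. All members were named. From each other list, up to 3 genes with the smallest adjusted p among those called between a NIL and Ler were named, and for PIF6 and each member called against Ler, the 3 genes of highest r. Symbols, chromosomes and gene order came from RefSeq (TAIR10.1), in which 21205 genes matched a locus tag and 21193 were placed; symbols it did not annotate were left out of the lists. Alternatives were a threshold of 0.0001, a filter at the 30th percentile of mean level, centring, quantile normalization, a prior trend, array weights, the replicate number as a block, a term for replicates 4 and 5, replicates 1 to 3 only, fits of 2 genotypes, and leaving out each array. After-ripened seeds were not analysed here.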

Additional observations from a re-analysis of the deposited data

Results flagged for a closer look

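Within 54 groups of 5 arrays, 3 held a value whose gap to the nearest other was large for the range of the group, where chance would give about 1 in 20, or 2.7. None was a phytochrome or PIF gene. FHY1 in NILDOG1 replicate 2 was 6.82, against 5.19 to 5.58 in the other NILDOG1 arrays. JMJ22, a histone arginine demethylase that promotes germination after light, was 7.16 in NILDOG1 replicate 4, against 7.61 to 7.74. PHOT2 in Ler replicate 5 was 4.43, against 3.67 to 3.88 in the other Ler arrays.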

How the results depend on the processing

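No alternative turned the direction of a called difference, and 21 differences that were not called, of at most 0.17, changed sign in some setting. Of the recomputed counts, 200 of 247 counts of called members stayed within 1.5 times. Counts of 0 that stayed at 0 are included, so this share does not describe the count of 2 in NILDOG3 against Ler. Of its calls, PIF3 was lost in 7 and PIF6 in 13 of the 19 fits with 1 array left out. In NILDOG3 against Ler the count of 2 became 0 at an adjusted p under 0.0001 and with replicates 1 to 3 only, and 1 (PIF3) with quantile normalization, with the replicate block (PIF6 at an adjusted p of 0.0714) and with the arrays of the 2 genotypes only. In NILDOG6 against Ler the 0 became 3 (PIF3, PIF4, PIF6) when each array was centred on its median, which moved the median of all genes by 0.11, and by 0.12 in NILDOG3. Between NILDOG1 and NILDOG2 the 0 became 1 (PHYA) with the replicate block, at an adjusted p of 0.0464, and 1 with a term for replicates 4 and 5, at 0.0309. In NILDOG3 against NILDOG2 the 1 became 0 at 0.0001, and 2 (PIF3, PIF6) with array weights and with the arrays of the 2 genotypes only. In NILDOG6 against NILDOG2 the 0 became 1 with centring, 1 with quantile normalization (both PIF3), 1 with array weights (PIF1) and 2 with the replicate block (PIF1 at 0.0474, PIF3 at 0.0311). The F test's 1 became 0 at 0.0001, 2 with the filter on low levels, with centring, with the prior trend and with the term for replicates 4 and 5, and 3 with array weights. The cause was not tested.

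With 1 array left out, the counts ran from 0 to 3 in NILDOG3 against Ler, 0 to 2 in NILDOG6 against Ler, 0 to 1 in NILDOG3 against NILDOG2, 0 to 2 in NILDOG6 against NILDOG2 and 0 to 3 in the F test, and stayed at 0 in NILDOG1 and NILDOG2 against Ler, between NILDOG1 and NILDOG2 and between the replicate sets. The F test count was 0 without NILDOG2 replicate 1 or 2 or NILDOG3 replicate 1. PIF4 and PIF5 lay below the median signal of every array, which limits what can be read from them.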

Other observations

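Further genes of the light lists, chosen after their values were seen, differed in NILDOG6 without the array labelled replicate 1, where n = 2. FYPP1, a phosphatase that binds phytochromes, was lower by -0.72 ± 0.18 (SE; limma adjusted p = 0.0203), and JMJ22 by -0.70 ± 0.17 (SE; adjusted p = 0.0168). DET1, a repressor of light responses, was higher by 0.58 ± 0.16 (SE; adjusted p = 0.0327). PAR1 and XTR7 were lower there by -1.81 ± 0.35 and -2.03 ± 0.40 (SE; adjusted p = 0.00395 and 0.00488).

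Of the 70 genes of the light lists, 1 (GA3OX2) was higher and 5 were lower in replicates 4 and 5 than in replicates 1 to 3, beside 0.328% and 1.82% of all genes. Over Ler and NILDOG1, with genotype as a term, EBF1, an F-box protein that also targets PIF3 in Arabidopsis seedlings, was lower in replicates 4 and 5 by -1.61 ± 0.18 (SE; limma adjusted p = 0.00445), HY5, the central activator of light responses, by -1.11 ± 0.21 (SE; adjusted p = 0.0218), and GAI by -0.51 ± 0.10 (SE; adjusted p = 0.0261). JMJ20 fell by 0.68 and UVR8, the UV-B receptor, by 0.72 (adjusted p = 0.0133 and 0.0417). The arrays were given no date or batch in the labels used here. In NILDOG2, 2 of 11 seed storage markers were higher than in Ler, SESA4 by 1.58 (adjusted p = 0.00340) and SESA2 by 1.14 (adjusted p = 0.0378), which was lost without any Ler or NILDOG2 array or NILDOG3 replicate 3.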
